A study of Mus musculus with 4 samples.

Results

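The Sox transcription factors of groups B, D and E were followed in embryonic mouse brains with a Cre-driven deletion of the SoxC genes Sox4 and Sox11. Members were all probe sets that the array's annotation pairs with exactly 1 of 10 gene symbols. They are Sox1, Sox2, Sox3 and Sox21 of group B, Sox5, Sox6 and Sox13 of group D, and Sox8, Sox9 and Sox10 of group E. The rule found 26 probe sets, of 10 of the array's 18193 named genes, among the 45037 of the array that are not controls, with 7, 12 and 7 in groups B, D and E. No member is a SoxC gene, and the genes that had been deleted are not among them.

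RNA of whole brains was read on 4 Affymetrix arrays. All embryos were at day 14.5 (E14.5) and of mixed 129SvJ/C57Bl/6J strain. The series' title speaks of spinal cord, while each sample is labelled whole brain. The 2 double-knockout arrays came from embryos with Brn4::Cre and the genotype Sox4 flox/flox, Sox11 flox/flox. The 2 control arrays came from embryos with Sox4 flox/flox and Sox11 flox/flox. Floxed alleles are thus shared by all 4 arrays, and Cre is carried by the knockout group alone. Brn4 is another name of Pou3f4, and the labels do not say in which brain cells the driver was active. No label gives an embryo's sex or says whether an array held 1 embryo or a pool. The arrays are labelled biological replicates. In whole-brain RNA, fewer cells of a type and less RNA per cell cannot be told apart.

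Sox proteins bind DNA through a shared HMG box and are sorted into groups by the sequence of that domain. The SoxB1 factors Sox1, Sox2 and Sox3 are expressed in dividing neural progenitors, where they hold back neuronal differentiation, and the SoxB2 factor Sox21 works against them. SoxC factors act after them, in cells that have begun to become neurons. SoxD proteins lack a transactivation domain of their own and pair with each other or modify the action of SoxE proteins, while Sox5 and Sox6 also shape cortical projection neurons and interneurons. Sox8, Sox9 and Sox10 form group E, which drives glial, neural crest and, with Sox5 and Sox6, cartilage development.

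In knockout brains Sox3 and Sox9 were higher and Sox5 was lower. The Sox3 call held in every alternative fit, while the Sox5 and Sox9 calls were lost in some (below). A Sox10 probe set was higher too, but it was tested only through its high knockout signals, and it did not pass without the filter on low signals (adjusted p = 0.0692). Sox1, Sox2, Sox21, Sox6, Sox13 and Sox8 did not pass the test. Values are MAS5 signals on a linear scale, in arbitrary array units. Changes are knockout minus control on the scale log2(signal + 16), tested in limma over all 27022 probe sets bright enough to be kept, and rose and fell mean an adjusted p under 0.05. Of the 26 member probe sets, 19 were bright enough to be tested, with at least 1 for each of the 10 genes. Of these 19, 3 rose, 3 fell and 13 did not pass, so that 31.6% were called, the Sox10 probe set included. Over all probe sets tested 23.2% were called, 11.7% as higher and 11.6% as lower. The members' share rests on 6 calls, several of them in 1 gene, and is not read as a result about the members. The knockout arrays did not overlap the control arrays at 12 of the 19 (63.2%), against 62.9% of all probe sets tested. The median log2 change was -0.11 over the 19 member probe sets and -0.01 over all probe sets tested. Read at the probe set with the highest mean, 2 of the 10 genes rose and 1 fell, while 27.3% of all 12489 genes were called.

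**Figure D1:**
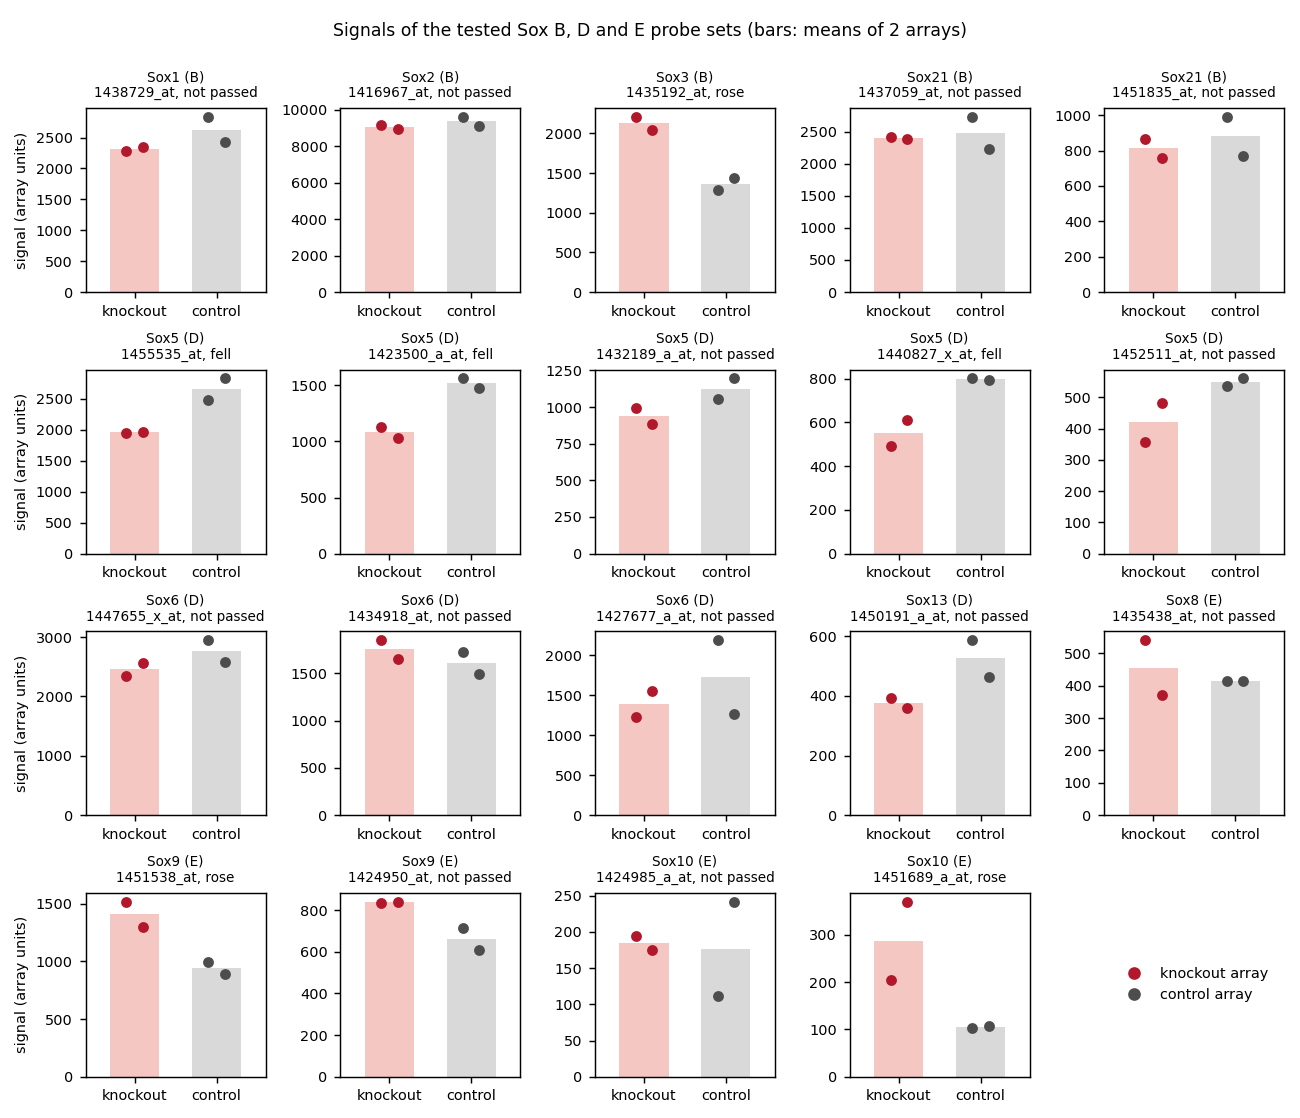
Signal in array units, on an axis from 0, of the 19 tested probe sets of Sox groups B, D and E. Each point is an array, each bar the mean of 2 arrays, and knockout stands left of control. Sox3 and Sox9 have knockout points above control points, and every Sox5 panel has them below.

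The arrays themselves were checked first. The deleted gene Sox11 fell at its brightest probe set to 10306 and 9491 on the knockout arrays, against 25451 and 26097 on the control arrays (log2 change -1.38 ± 0.07, SE; limma adjusted p = 2.96e-06), and its other 5 probe sets fell too. Sox4 fell at 4 of its 6 tested probe sets, among them 1419156_at with 2077 and 2516 in knockouts, against 15114 and 14671 in controls (log2 change -2.69, adjusted p = 8.21e-07). At the brightest, 1433575_at, it read 37277 and 38263 in knockouts and 36048 and 34819 in controls (0.09, adjusted p = 0.242), and at 1419157_at it rose (1.83, adjusted p = 6.84e-06). Whether a Sox4 probe set lies inside the floxed part is not given in the sources used. Median signals of the 4 arrays lay between 262.0 and 286.7. Control array 2 differed most from the others in its sex-linked genes. Knockout array 2 also read higher in Xist than knockout array 1 and control array 1. Xist, which is transcribed from an inactive X chromosome, read 260 and 1670 in knockouts, and 166 and 25215 in controls (1436936_s_at). The Y-linked gene Eif2s3y read 3890 and 3578 in knockouts and 3484 and 43.5 in controls (1417210_at). Sox3 is itself an X-linked gene, and its value without control array 2 is given below.

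Group B was led by Sox3, the only one of its genes that was called. Sox3 read 2210.1 and 2042 in knockout brains, against 1291 and 1442 in control brains, at 1435192_at. Each knockout array thus exceeded each control array. Sox3 averaged 2126 ± 119 in knockouts and 1367 ± 107 in controls (SD, n = 2 each). The log2 change was 0.63 ± 0.12 (SE), or 1.55-fold, with a 95% confidence interval of 0.38 to 0.89 and a limma adjusted p of 0.00362. The call held with each array left out. Without control array 2, the one highest in Xist, the log2 change was 0.71, and without knockout array 2 it was 0.69. The part of the sex-linked difference in this result was otherwise not tested. A dimmer Sox3 probe set, 1450485_at, read 154 and 179.5 in knockouts and 104 and 96.4 in controls. It lay under the filter on low signals and was not tested, and its arrays separated in the same direction.

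Sox2, the SoxB1 factor most used to mark neural stem cells, was the brightest of the member probe sets. It read 9151 and 8924 in knockout brains, against 9611 and 9114 in control brains (1416967_at), so that the groups overlapped. The log2 change was -0.05 ± 0.07 (SE; limma adjusted p = 0.661). Its interval of -0.21 to 0.11 corresponds to 0.863-fold to 1.08-fold and was the narrowest interval of the 19. Sox1 read 2279 and 2344 in knockouts and 2834 and 2422 in controls (1438729_at). The knockout arrays lay below the controls, by a distance within the spread of the controls (log2 change -0.18, interval -0.42 to 0.06, adjusted p = 0.268). A faint Sox1 probe set, 1422205_at, read 73.6 and 23.7 in knockouts and 27.4 and 36.6 in controls and was not tested. Sox21, which opposes the SoxB1 factors, read 2420.1 and 2382 in knockouts and 2730.3 and 2236 in controls (1437059_at). Its control arrays enclosed the knockout arrays. The log2 change was -0.04 (interval -0.30 to 0.22, adjusted p = 0.835), and its sign turned without control array 1 (0.10) and with median centring. At the other Sox21 probe set, 1451835_at, the change was -0.11 (interval -0.46 to 0.24, adjusted p = 0.666; 0.07 without control array 1). The changes of Sox3 and of the other SoxB genes were not tested against each other.

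**Figure D2:**
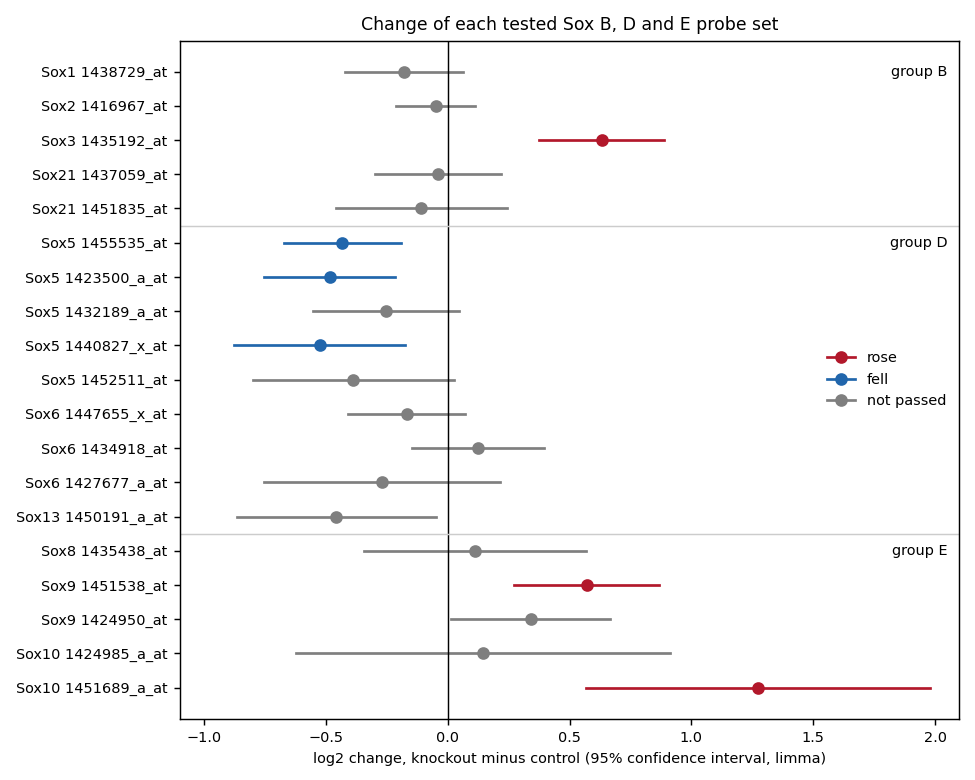
Log2 change, knockout minus control, with its 95% confidence interval from limma, for each tested probe set, grouped by Sox group and coloured by call. All 5 tested Sox5 intervals lie mostly below 0, and that of Sox2 is the narrowest.

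Group D was led by Sox5, which was lower in knockout brains at each of its probe sets. Sox5 controls the identity and migration of deep-layer cortical neurons. Its brightest probe set, 1455535_at, read 1944 and 1971 in knockouts, against 2480.3 and 2829 in controls. The averages were 1958 ± 19.0 in knockouts and 2655 ± 247 in controls (SD, n = 2 each). On the log2 scale the difference was -0.43 ± 0.11 (SE; adjusted p = 0.0165 in limma), with an interval of -0.67 to -0.19, and knockouts stood at 0.741 of the control level. At 1423500_a_at Sox5 read 1131 and 1030 in knockouts, against 1561 and 1475 in controls (log2 change -0.49 ± 0.12, adjusted p = 0.0168). At 1440827_x_at it read 490.3 and 612 in knockouts, against 801 and 791 in controls (log2 change -0.53 ± 0.16, adjusted p = 0.0366). At none of these 3 probe sets did the groups overlap. A probe set with the suffix x can also detect related transcripts.

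The other tested Sox5 probe sets were lower without passing. At 1432189_a_at the signals were 993 and 885 in knockouts and 1054 and 1195 in controls (log2 change -0.26, adjusted p = 0.202). At 1452511_at they were 358 and 481 in knockouts and 537 and 560.3 in controls (-0.39, adjusted p = 0.16), and the change was -0.18 without knockout array 1 and -0.59 without knockout array 2. At 1432189_a_at it was -0.17 both without knockout array 2 and without control array 2. The groups did not overlap there either. Both untested probe sets had knockout signals below all control signals, with 114 and 118 in knockouts and 174 and 120 in controls at 1432190_at, and 11 and 64.9 in knockouts and 109 and 94.8 in controls at 1459261_at. These 7 probe sets share a gene and are not independent. The mean of the tested Sox5 probe sets changed by -0.42 on the log2 scale (adjusted p = 0.0151).

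The Sox5 calls were narrow. At 1455535_at the call was lost without knockout array 1 (-0.42, adjusted p = 0.0821), knockout array 2 (-0.44, adjusted p = 0.0704) or control array 2 (-0.34, adjusted p = 0.109). At 1423500_a_at it was lost without knockout array 1 (-0.55, adjusted p = 0.0502), knockout array 2 (-0.42, adjusted p = 0.0943) or control array 1 (-0.44, adjusted p = 0.0683). At 1440827_x_at it was lost without knockout array 1 (-0.37, adjusted p = 0.198), control array 1 (-0.52, adjusted p = 0.0814) or control array 2 (-0.53, adjusted p = 0.0644). With a prior variance that does not vary with signal no Sox5 probe set passed. Limma's unadjusted p in that fit was under 0.05 at 4 member probe sets that were lower, among them that of Sox13. The Sox5 probe set 1440827_x_at also did not pass without the signal filter (limma adjusted p = 0.0834). The sign of the change was negative in each of these fits.

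**Figure D3:**
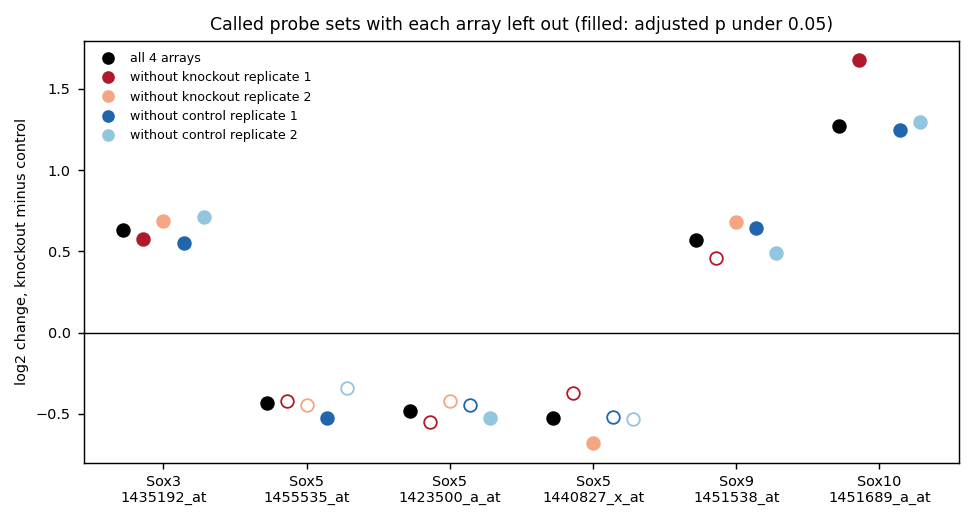
Log2 change, knockout minus control, of the 6 called probe sets with all 4 arrays and with each array left out. Filled points passed an adjusted p of 0.05. Sox3 stays filled throughout, each Sox5 probe set loses its call in 3 of 4 fits, and Sox10 has no value without knockout array 2 since it then lies under the filter.

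Sox13, the SoxD gene beside Sox5 and Sox6, was dimmer than Sox5 and did not pass. It read 393 and 360.4 in knockout brains, against 588 and 465 in control brains (1450191_a_at). The groups did not overlap, and the controls were far apart. The log2 change was -0.46 ± 0.18 (SE; limma adjusted p = 0.0991), with an interval of -0.86 to -0.05. It was -0.29 without control array 1 (adjusted p = 0.427) and -0.62 without control array 2 (adjusted p = 0.0511). Sox6, a partner of Sox5 that also acts in cortical interneurons, showed no common direction over its probe sets. Its brightest, 1447655_x_at, read 2352 and 2560 in knockouts and 2952 and 2579 in controls (log2 change -0.17, interval -0.41 to 0.07, adjusted p = 0.294). At 1434918_at it read 1852 and 1655 in knockouts and 1729 and 1491 in controls (0.12, interval -0.15 to 0.40, adjusted p = 0.51). At 1427677_a_at it read 1223 and 1552 in knockouts and 2190 and 1264 in controls. The log2 change there was -0.27 over all arrays (limma adjusted p = 0.409), 0.12 without control array 1 and -0.66 without control array 2. In the last of these fits the probe set was called as lower. Its change thus depended on both control arrays, which were far apart. The untested 1426018_a_at read 108 and 149 in knockouts and 149 and 70.1 in controls. Whether Sox5 and Sox6 differed in their change was not tested.

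Start-site sequences of Sox5, Sox13 and Sox2 are shown because they set the called SoxD gene beside the SoxD gene whose groups were separate without passing and the bright SoxB gene with the narrowest interval. They are RefSeq sequences of build GRCm38.p6, 250 bases before to 50 after a gene's start, written 5′ to 3′ on the strand of the gene. Capitals mark the Sox core motifs ACAAAG and ACAATG, searched on both strands. The Sox5 window lies at chr6:143947057-143947356, minus strand, Sox13 at chr1:133424163-133424462, minus strand and Sox2 at chr3:34649745-34650044, plus strand.

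Sox5: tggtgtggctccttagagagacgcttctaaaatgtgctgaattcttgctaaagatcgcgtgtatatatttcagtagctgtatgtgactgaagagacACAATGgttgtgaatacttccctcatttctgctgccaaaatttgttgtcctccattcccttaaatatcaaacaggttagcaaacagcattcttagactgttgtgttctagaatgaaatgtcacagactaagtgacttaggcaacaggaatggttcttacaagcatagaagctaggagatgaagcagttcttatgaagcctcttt
Sox13: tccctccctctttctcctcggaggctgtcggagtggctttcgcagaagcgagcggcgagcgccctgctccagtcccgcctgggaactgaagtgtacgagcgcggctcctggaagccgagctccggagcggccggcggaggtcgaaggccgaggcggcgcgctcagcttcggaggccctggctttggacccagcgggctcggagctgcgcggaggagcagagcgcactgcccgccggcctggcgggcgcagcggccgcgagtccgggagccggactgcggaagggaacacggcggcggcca
Sox2: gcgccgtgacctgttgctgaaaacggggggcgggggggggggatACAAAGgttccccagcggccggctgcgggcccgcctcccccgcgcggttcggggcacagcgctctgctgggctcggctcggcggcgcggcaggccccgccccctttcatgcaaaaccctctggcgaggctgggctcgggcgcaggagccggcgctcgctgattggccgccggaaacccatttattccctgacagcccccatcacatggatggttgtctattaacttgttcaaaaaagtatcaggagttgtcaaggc

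Sox5 held 1 match, to ACAATG at bases 97 to 102, and Sox2 held 1 match, to ACAAAG at bases 45 to 50. The Sox13 window held none of these letters. Of all 32851 windows of this length, 28.6% held either motif, 18.7% ACAAAG and 12.6% ACAATG. The sequence table matched 7 of the 10 genes, with 12 windows, of which 7 held a match. These 7 were the windows of Sox2 and Sox5 and 5 of the 6 windows of Sox6. The G and C content was 39.7% at Sox5, 73.3% at Sox13 and 66.3% at Sox2. A match is a description of the letters and was not tied to any change in signal.

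Group E was led by Sox9, a factor of radial glia and astrocytes that sets the onset of gliogenesis. Sox9 read 1518 and 1295 in knockout brains, against 992 and 890 in control brains (1451538_at), with no overlap. The averages were 1406 ± 157 in knockouts and 941 ± 72.1 in controls (SD, n = 2 each). The rise was 0.57 ± 0.13 on the log2 scale (SE; limma adjusted p = 0.0129), or 1.48-fold, with an interval of 0.27 to 0.87. The call was lost without knockout array 1 (0.46, adjusted p = 0.109) and with a prior variance that does not vary with signal (adjusted p = 0.0584). At 1424950_at Sox9 read 833 and 841 in knockouts, against 714 and 606 in controls. The groups were separate there too, and the change of 0.34 did not pass (interval 0.02 to 0.66, adjusted p = 0.122). The mean of both tested Sox9 probe sets changed by 0.45 (adjusted p = 0.0149). The remaining probe set, 1433889_at, was near the bottom of the scale, at 25.3 and 21.8 in knockouts and 18.7 and 16.4 in controls, and was not tested.

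Sox10, a factor of oligodendrocytes, Schwann cells and melanocytes, was dim at all of its probe sets. At 1451689_a_at it read 204 and 371 in knockout brains, against 103 and 107 in control brains. The knockout arrays exceeded the controls and were themselves far apart, at 287.5 ± 118 in knockouts and 105 ± 3.18 in controls (SD, n = 2 each). The log2 change was 1.27 ± 0.32 (SE; limma adjusted p = 0.0169), with an interval of 0.57 to 1.98. The control signals lay under the filter's cutoff of 154.6, so this probe set was tested only because its knockout signals were high. Without knockout array 2 it fell below the filter and had no test, and with no filter on any probe set it did not pass (adjusted p = 0.0692). With knockout array 1 left out the change was 1.68 (adjusted p = 0.0301). At 1424985_a_at Sox10 read 194 and 175 in knockouts, between the 111 and 242 of the controls (log2 change 0.15, interval -0.62 to 0.91, adjusted p = 0.798). The change there was -0.36 without control array 1. At the untested 1425369_a_at it read 63.0 and 119 in knockouts and 46.8 and 8.0 in controls. The mean of the tested Sox10 probe sets did not pass (0.71, adjusted p = 0.0887). Whether the probe sets differed was not tested.

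Sox8, which overlaps with Sox9 and Sox10 in glia, read 541 and 370.2 in knockout brains, against 413.5 and 413 in control brains (1435438_at). The knockout arrays lay on either side of the controls. The log2 change was 0.11 (interval -0.34 to 0.57, limma adjusted p = 0.737), and -0.15 without knockout array 1.

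Among Sox genes of the other groups, 6 of the 9 listed were measured, and of these 1 rose, 1 fell and 4 did not pass, each read where its signal was brightest. The fall was that of the deleted gene Sox11. Those that did not pass include the deleted gene Sox4, which fell at dimmer probe sets (above), and the SoxC gene Sox12, which at the dimmer 1439754_at rose (log2 change 0.49, adjusted p = 0.0251). Sox17, a SoxF factor of endothelium, rose (log2 change 0.56, adjusted p = 0.0405). The Sox17 call was lost without knockout array 1 (0.68), knockout array 2 (0.44) or control array 1 (0.37), without the signal filter (adjusted p = 0.0991) and with a prior variance that does not vary with signal (adjusted p = 0.1). Sox14, the other SoxB2 gene beside Sox21 and a marker of brainstem and spinal interneurons, was under the filter and not among the members. It read 71.9 and 46.1 in knockouts and 235.5 and 231 in controls. With no filter it fell (log2 change -1.75, limma adjusted p = 0.0247), so that 2 of these genes fell. Without knockout array 2 it was tested only through its high control signals, so its fall in that fit adds no support.

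Genes of the cells in which the members are known to act were counted from lists, each gene at its brightest probe set, with 27.3% of all genes called and a median log2 change of 0.06. Of 14 progenitor genes of the ventricular zone, where SoxB1 factors are expressed, 5 rose, 3 fell and 6 did not pass, with a median of 0.23. Lhx2 (0.87) and Pax6 (0.44), progenitor transcription factors, Mki67 (0.76), a protein of cycling cells, and the intermediate filaments Nes (0.61) and Vim (0.22) rose. Prom1 (-0.77), a membrane glycoprotein of progenitors, Msi1 (-0.41), an RNA-binding protein, and Cdh2 (-0.29), N-cadherin, fell. The list's summed signals were 114757 and 115047 in knockouts, against 107478 and 100967 in controls. The number that rose was 3 without knockout array 1 and 3 without control array 2. Of 14 genes of neuronal differentiation, 10 fell and 4 did not pass, with a median of -0.42. Ina (-1.02), a neuronal intermediate filament, and Tubb3 (-0.75), a neuronal tubulin, were among those that fell. The summed signals of the 14 neuronal genes were 161933 and 159911 in knockouts, against 218231 and 225060.0 in controls. Of 8 genes of neurons that express Sox5 or Sox6, 5 fell, 1 rose and 2 did not pass, with a median of -0.38. Foxp2 (-1.52), Bcl11b (-0.54) and Tbr1 (-0.47), transcription factors of deep-layer or striatal neurons, fell, as did the interneuron factors Lhx6 (-0.48) and Maf (-0.28), and Fezf2, a determinant of subcerebral projection neurons, rose (0.48). Their summed signals were 31367 and 30467 in knockouts, against 42694 and 42788 in controls. The number that fell was 3 without control array 1, and the Lhx6 call was lost without knockout array 2 (-0.34) or control array 1 (-0.38). The part of these neuronal genes in the Sox5 values was not tested.

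Glial and peripheral lists stood beside the SoxE genes as follows. Of 12 astroglial genes, 7 rose and 5 did not pass, with a median of 0.33. Apoe (1.84), a lipid carrier that macrophages also make, Aqp4 (1.09), the astrocyte water channel, and Gjb6 (0.65), a gap junction protein, changed most. Aqp4 read 312 and 353 in knockouts, against 141 and 155 in controls, whose mean lay under the filter's cutoff, so it was tested only through its knockout signals. The list's summed signals were 74272 and 71477 in knockouts, against 56805 and 58391 in controls. The Aqp4 call was lost without knockout array 1 (1.17) or knockout array 2 (1.0), and the Gjb6 call without knockout array 2 (0.54). The number that rose was 4 without knockout array 1 and 3 without knockout array 2. Of 10 oligodendrocyte lineage genes, 2 rose, 3 fell and 5 did not pass, with a median of 0.12. Nkx2-2 (-0.79), a transcription factor of the ventral neural tube and of oligodendrocyte precursors, fell, as did Mbp (-0.74), a myelin protein, and Bcas1 (-0.70), a marker of newly forming oligodendrocytes. Pdgfra (0.36), the growth factor receptor of oligodendrocyte precursors, and Cnp (0.39), a myelin enzyme, rose. The list's summed signals were 8213 and 7260 in knockouts, against 7472 and 8484 in controls. Without knockout array 2, 0 rose and 0 fell in limma, where an unadjusted p under 0.05 gave 2 higher and 3 lower. Without knockout array 1, 0 rose (1 at an unadjusted p under 0.05) and 1 fell. Without control array 1 or control array 2, 0 rose (1 and 2 at an unadjusted p under 0.05). The Nkx2-2 call was lost without knockout array 1 (-0.76), knockout array 2 (-0.82) or control array 1 (-0.60), and the Mbp call without knockout array 2 (-0.57). The Bcas1 call was lost without knockout array 1 (-0.82), knockout array 2 (-0.59) or control array 2 (-0.50).

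Of 11 genes of the neural crest, Schwann cells and melanocytes, 3 rose, 4 fell and 4 did not pass, with a median of 0.08. Tfap2a (-1.96) and Tfap2b (-1.70), transcription factors of neural crest and of hindbrain and midbrain neurons, fell, as did Pax3 (-0.84), a factor of neural crest and dorsal neural tube, and the neurotrophin receptor Ngfr (-0.80). The myelin protein Pmp22 (0.87) and the endothelin receptor Ednrb (0.71) rose. Dct, a melanin synthesis enzyme, rose (adjusted p = 0.000119), to 1219 and 1388 in knockouts, against 471 and 429 in controls. The list's summed signals were 13936 and 14033 in knockouts, against 13845 and 13802 in controls, and the number that rose was 5 without control array 1. Mitf, a melanocyte factor of the same list, read 437 and 436 in knockouts, against 415 and 237 in controls. It did not pass (log2 change 0.45, limma adjusted p = 0.216). The melanosome protein Pmel was dim, at 111 and 112 in knockouts and 35.4 and 50.9 in controls. So was the melanin enzyme Tyr, at 80.2 and 94.4 in knockouts and 86.6 and 68.8 in controls. Of 14 cartilage genes listed, 6 were measured, 2 rose and 4 did not pass, with a median of -0.11. Those that rose were Col9a1 (1.37), a collagen chain, and Cnmd (1.09), a cartilage glycoprotein. Cnmd did not pass without knockout array 2 (0.95). The summed signals were 3821 and 3771 in knockouts, against 3434 and 3114 in controls. Col2a1, the main cartilage collagen, read 737 and 701 in knockouts, against 948 and 908 in controls (-0.36, adjusted p = 0.0788). The 8 untested genes stayed between 4.8 and 187.2 on the 4 arrays. Among them the link protein Hapln1 read 98.7 and 100.5 in knockouts and 46.1 and 33.5 in controls. The part of these cells in the Sox9 and Sox10 values was not tested.

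Markers of other cells also differed between the genotypes. All 12 measured genes of microglia and macrophages rose, with a median log2 change of 1.64 and summed signals of 27914 and 25932 in knockouts, against 9010.3 and 9964 in controls. The number that rose was 10 without the signal filter and 10 with a prior variance that does not vary with signal. It was also lower with any array left out. Mpeg1 (2.35), a macrophage pore-forming protein, and the complement subunits C1qa (2.14) and C1qb (2.01) changed most. Among 10 meningeal and mesenchymal genes the matrix genes Postn (0.76), Col1a2 (0.40), Col3a1 (0.39) and Dcn (0.39) rose (median 0.31). Without knockout array 2 the number was 2, and Postn did not pass (0.59). Among 8 endothelial genes the receptors Tek (0.65) and Kdr (0.47) and the junction genes Cdh5 (0.50) and Cldn5 (0.42) rose (median 0.39). Of the 8, 1 rose without knockout array 2, and 0 without knockout array 1 or control array 1, where limma's unadjusted p was under 0.05 for 4 in either case. Of 8 choroid plexus genes Folr1 (0.57) and Clic6 (0.48) rose and Otx2 (-0.51) fell, and 1 rose when knockout array 1 or knockout array 2 was left out. The erythroid genes Slc4a1 (0.41) and Alas2 (-0.05) did not pass. The part of these cells in the changes of the Sox genes was not tested.

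**Figure D4:**
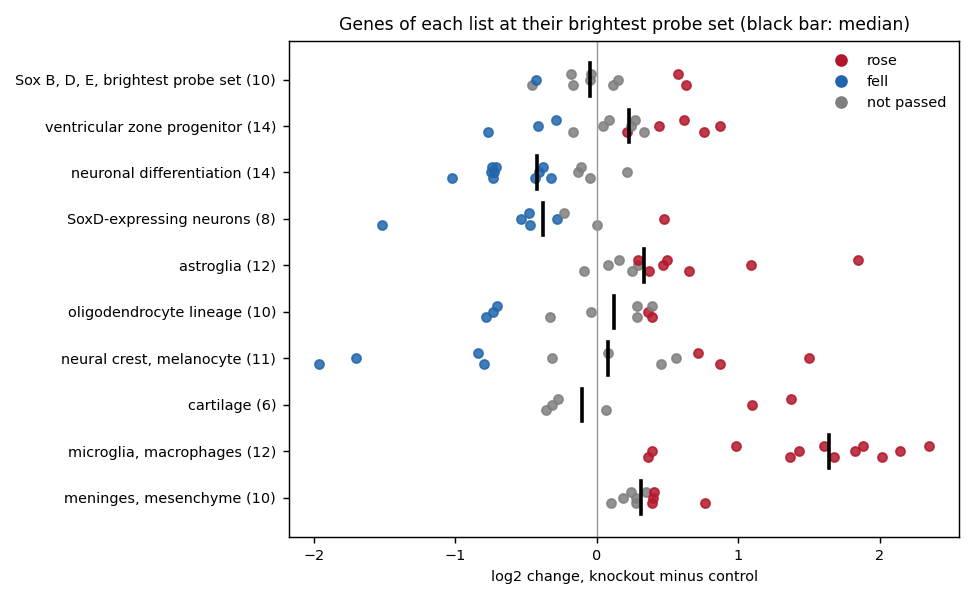
Log2 change, knockout minus control, of each measured gene at its brightest probe set, for the Sox genes of groups B, D and E and for 9 gene lists, with the number measured in brackets. Points are genes coloured by call and black bars are medians. The neuronal lists lie mostly below 0, the astroglial and microglial lists mostly above.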

How the data were processed

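Gene expression in whole embryonic mouse brains was read on 4 one-colour Affymetrix arrays. The values the authors deposited are linear intensities of probe sets, which come from MAS5 5.0 per the submitters' processing notes. Each array had a trimmed mean of 1000 after 2% was cut at either end, so group-wide shifts would have been scaled away. No detection calls were used, and the sources used here name no genome build.

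Of 45101 probe sets 64 were array controls and were left out. Symbols came from the platform annotation, which gave 34945 probe sets 1 symbol, 932 several and 9160 none. Signals were transformed as log2(signal + 16), and probe sets with a mean above the 40th percentile (7.41, signal 154.6) were kept. Groups were compared in limma 3.58.1 under R 4.3.3 with a prior variance that followed the signal, and p-values were adjusted (Benjamini-Hochberg) over all probe sets kept. There were 2 residual degrees of freedom and 8.33 from the prior. Changes on this scale understate those of dim genes, and 2 arrays per group limit the precision. The p-values rest on the spread of these arrays, which are labelled biological replicates, and some of that spread may be technical. The steps were tested on simulated data.

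All member probe sets are named. List genes were named by the size of their change, 2 to 4 per list, with those that complete a count of 5 or fewer. Sox14, Xist, Eif2s3y, Sox12, Mitf, Pmel, Tyr and Hapln1 were chosen after their values were seen. Members and lists were chosen with earlier results of these data known. As alternatives, each array was left out, arrays were centred on their median or quantile normalized, the pseudocount was 1 or 64, the filter was dropped or set at the 60th percentile, eBayes was run without trend or robustly, the threshold was 0.1, the replicate number entered as a block, and a gene's probe sets were averaged. Recomputing the list counts and list genes was added after the data were seen. No per-sample column was left unused.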

Additional observations from a re-analysis of the deposited data

How the results depend on the processing

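Of the 260 values that the 14 alternative fits gave for the 19 tested probe sets, 236 kept their sign and their side of the threshold, 16 lost a call, 2 gained one and 6 turned sign, none of these 6 at a called probe set. The calls at Sox3 held in every alternative fit. Called probe sets were 6277 in all, 3114 without the variance trend and 3132 to 5422 with an array left out. The 3 member falls, all at Sox5, became 0 without the variance trend. In that fit limma gave 4 lower member probe sets at an unadjusted p under 0.05, Sox13 among them. Each of the Sox5 calls was lost in most fits with an array left out, and all of them without knockout array 1. Without control array 2 a Sox6 probe set, 1427677_a_at, was called as lower (log2 change -0.66). The 3 member rises became 2 to 3 with an array left out. With the replicate number as a block, 6844 probe sets were called, and the block changed no call of a member. The labels give no pairing beyond that number. The differences between replicates 1 and 2 of the knockouts and of the controls correlated with r = 0.003 across probe sets. This value cannot exclude that arrays of the same number share an origin.

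With arrays left out, the log2 change ranged from -0.15 to 0.38 for Sox8, from -0.18 to 0.10 and from -0.29 to 0.0683 for the Sox21 probe sets, from -0.62 to -0.29 for Sox13, from -0.29 to -0.07 for Sox1, from -0.66 to 0.12 for Sox6 1427677_a_at and from -0.36 to 0.22 for Sox10 1424985_a_at. With median centring the brighter Sox21 probe set read 0.000438. Without the variance trend, 2 progenitor and 3 astroglial genes rose and 6 neuronal, 2 Sox5 or Sox6 neuron and 1 oligodendrocyte genes fell. That fit also left 1 rise each in mesenchyme, endothelium and choroid plexus, and lost the Lhx2, Lhx6, Mbp, Bcas1, Col1a2, Col3a1 and Sox17 calls. In it 1 progenitor gene fell, no gene of the Sox5 or Sox6 neuron list rose (Fezf2; 1 at an unadjusted p under 0.05 in limma), no oligodendrocyte gene rose (Pdgfra and Cnp; 2), and no choroid plexus gene fell (Otx2; 1). Without the filter, 3 Sox5 or Sox6 neuron and 1 oligodendrocyte genes fell, and 2 endothelial genes rose. No oligodendrocyte gene rose without the filter (2 at an unadjusted p under 0.05 in limma). With median centring 4 choroid plexus genes rose, and with the 60th percentile filter 1 cartilage gene did. The cause was not tested. Low signal limits Sox10, and each fit with an array left out sets a lone array against a pair, assuming that it varies like the pair.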
